A study of Rattus norvegicus with 8 samples.

Results

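The levels of 10 genes for proteins of the non-muscle or general cytoskeleton were followed after vascular intimal injury: the myosin heavy chains Myh9 and Myh10, the tropomyosins Tpm1, Tpm2, Tpm3 and Tpm4, caldesmon (Cald1), vinculin (Vcl), vimentin (Vim) and beta-actin (Actb). They were chosen by name, and each of the 10 symbols matched 1 of the 37209 genes in the count table. mRNA had been sequenced from 8 carotid arteries of male Sprague-Dawley rats with no genetic change, whose age is not given. The injured group held 4 left carotid arteries whose inner layer had been damaged with a balloon catheter, and the control group held 4 undamaged right carotid arteries, all taken 2 weeks after surgery. The right artery was described as the animal's own control, but it is not stated whether arteries with the same number came from 1 rat, or whether each library came from 1 rat, so p-values measure the spread between these 8 libraries.

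A contractile smooth muscle cell holds its actin filaments together with muscle-type proteins, among them smooth muscle myosin (Myh11), smooth muscle alpha-actin (Acta2), calponin (Cnn1) and desmin (Des). After injury of the vessel wall such cells can lose part of this equipment and begin to migrate and divide, and they are then known to rely more on cytoplasmic actins, non-muscle myosin II and the short tropomyosins. Several of the 10 genes make both muscle and non-muscle proteins by alternative promoters and splicing. The counts were summed per gene, so the muscle and non-muscle forms of Tpm1, Tpm2, Tpm3, Cald1 and Vcl cannot be told apart here.

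The libraries held 11459632 to 16658089 counts. Before scaling between libraries, 3 counts corresponded to 0.18 to 0.262 CPM, a limit that covers counting error only. CPM is the count relative to the library size, scaled between libraries with the TMM factors of edgeR. Control artery 4 stood apart. Across 14359 genes its log2 CPM correlated with the other controls at 0.83 to 0.852, against 0.976 to 0.978 among those 3. It carried 14509 CPM in sum over 9 neuron markers, against 10.3 to 16.7 CPM in the other controls and 25.7 to 4369 CPM in the injured arteries, where injured artery 3 was the highest. Its sum over 8 contractile smooth muscle genes, led by Acta2, was 17946 CPM, against 37743 to 51184 CPM in the other controls and 10699 to 16690 CPM after injury. For this reason the main results for the 10 genes are given with and without control artery 4. Because its low contractile sum was part of the reason, leaving it out favours lower values of muscle-type genes after injury. The fit without it is therefore no independent support for a fall of Tpm1, Tpm2, Cald1 or Vcl. The extraction text of the labels names a brain region in place of the carotid artery. The summed level of 7 brain neuron and astrocyte markers was 5.18 to 49.2 CPM in the controls and 9.83 to 203 CPM after injury. Gfap led this sum, with 0.735 to 26.7 CPM in the controls and 8.74 to 196 CPM after injury. The 9 neuron markers above were led by Prph, with 2.94 to 2289 CPM in the controls and 3.34 to 1232 CPM after injury. Other cell types moved with the injury. Macrophage markers summed to 195 to 295 CPM in the controls and 1742 to 2623 CPM after injury, with 9 of 10 called higher and Lyz2 in the lead. Proliferation markers summed to 9.97 to 17.4 CPM and 81.2 to 124 CPM, with 7 of 7 called higher. Skeletal muscle markers summed to 102 to 258 CPM and 335 to 1200 CPM, with 9 of the 11 tested called higher. In whole arteries, fewer cells of a type and less RNA per cell cannot be told apart. Leukocytes, dividing cells and skeletal muscle also use actin, myosin, vimentin or tropomyosin genes, and their part in the results was not tested.

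The 10 genes did not move as a group. Tpm3 and Tpm4 rose in the injured arteries, by 1.8-fold and 1.7-fold. Tpm2, Tpm1, Cald1 and Vcl were lower on average, but with a spread among the controls that kept them above the threshold until control artery 4 was left out. For Myh10, Actb and Vim no change passed the test, and Myh9 had too few counts. A gene was called at a false discovery rate (FDR, here the p of the quasi-likelihood fit in edgeR, adjusted by Benjamini and Hochberg over all tested genes) under 0.05 together with a fold change above 2. By this rule 0 of the 9 tested genes were called, where 10.9% of all 14359 tested genes were. At an FDR under 0.05 with any fold, 2 of 9 passed, both higher after injury, against 17.2% of all genes in either direction and 10.8% in the upward direction. At an unadjusted p under 0.05 the count was 4 of 9, against 31.1%, and DESeq2 called 1, Tpm2, against 12.9% of the genes it tested. The groups did not overlap for 3 of 9 genes, Tpm3, Tpm4 and Vim, against 23.7%. Shares this close to the background, over 9 genes, are no result about the list. Their median log2 fold change was -0.13, and that of all tested genes -0.057.

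Without control artery 4, 6 of the 9 genes had an FDR under 0.05 in edgeR's test, Tpm3 and Tpm4 higher and Tpm1, Tpm2, Cald1 and Vcl lower. Among all genes 29.9% then passed, 12.9% in the downward direction. With the fold above 2 only Tpm2 was called, against 16.2% of all genes. The groups then did not overlap for 7 of the 9 genes, all but Myh10 and Actb, against 40.3%. Leaving out injured artery 3 as well, which had the most neuron marker counts of its group, again gave 6 of 9 at this FDR, against 34.8%. That last choice was made after the data were seen, and control artery 4 was also singled out from these data, in part by its low contractile smooth muscle sum. With any other single artery left out, 1 or 2 of the genes passed this FDR.

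**Figure D1:**
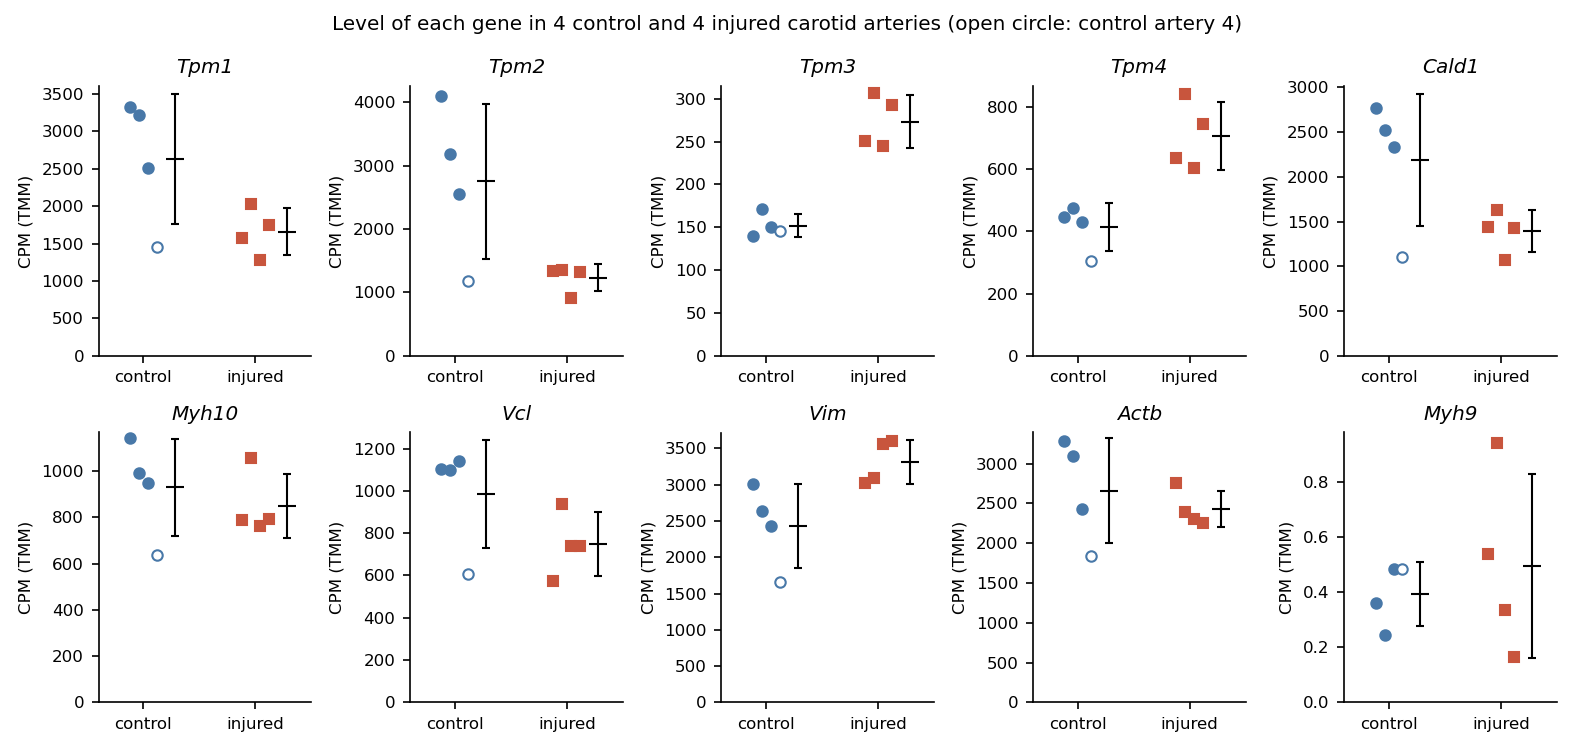
Level of each of the 10 genes in CPM (linear axis from 0, 1 panel per gene) in 4 control arteries (blue circles, control artery 4 open) and 4 injured arteries (red squares), with the mean and SD of each group as a black bar. The injured arteries lie above every control for Tpm3, Tpm4 and Vim, and for Tpm1, Tpm2 and Cald1 control artery 4 lies at the level of the injured arteries, apart from the other controls.

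Tropomyosins are coiled-coil proteins that lie along the actin filament and set which myosins and other partners can bind it. Tpm1 and Tpm2 give the main tropomyosins of smooth and striated muscle, besides non-muscle forms. Tpm3 and Tpm4 are the chief genes of the short cytoskeletal tropomyosins, although Tpm3 also has a form of slow skeletal muscle. These 4 genes carried the clearest pattern, with Tpm3 and Tpm4 higher and Tpm1 and Tpm2 lower on average, so their promoter windows are shown. Each window runs from 250 bases before to 50 bases after a transcription start of RefSeq on the build GRCr8, which need not be the build behind the counts, and is written 5′ to 3′ on the strand of the gene. Capitals mark GC boxes (GGGCGG on either strand). Tpm3 has 3 windows, of which the third overlaps the second and is not shown.
Tpm1, chr8:76543366-76543665, minus strand: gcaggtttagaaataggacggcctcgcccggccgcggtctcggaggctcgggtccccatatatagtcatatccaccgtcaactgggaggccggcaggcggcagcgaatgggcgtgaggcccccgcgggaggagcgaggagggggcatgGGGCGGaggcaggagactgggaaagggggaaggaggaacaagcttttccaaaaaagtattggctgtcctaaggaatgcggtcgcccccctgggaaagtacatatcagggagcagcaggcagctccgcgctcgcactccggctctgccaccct
Tpm2, chr5:62575677-62575976, minus strand: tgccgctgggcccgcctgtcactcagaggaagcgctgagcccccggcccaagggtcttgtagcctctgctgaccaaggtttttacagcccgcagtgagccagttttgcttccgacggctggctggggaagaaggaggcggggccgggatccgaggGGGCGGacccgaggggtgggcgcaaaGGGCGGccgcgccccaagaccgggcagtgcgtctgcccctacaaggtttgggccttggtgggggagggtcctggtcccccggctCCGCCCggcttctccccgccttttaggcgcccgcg
Tpm3 window 1, chr2:177814633-177814932, plus strand: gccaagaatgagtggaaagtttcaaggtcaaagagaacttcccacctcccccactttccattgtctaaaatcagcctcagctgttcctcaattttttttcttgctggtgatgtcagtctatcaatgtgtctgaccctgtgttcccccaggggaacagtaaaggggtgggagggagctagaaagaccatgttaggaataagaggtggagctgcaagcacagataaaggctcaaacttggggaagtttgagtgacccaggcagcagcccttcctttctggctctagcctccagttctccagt
Tpm3 window 2, chr2:177821115-177821414, plus strand: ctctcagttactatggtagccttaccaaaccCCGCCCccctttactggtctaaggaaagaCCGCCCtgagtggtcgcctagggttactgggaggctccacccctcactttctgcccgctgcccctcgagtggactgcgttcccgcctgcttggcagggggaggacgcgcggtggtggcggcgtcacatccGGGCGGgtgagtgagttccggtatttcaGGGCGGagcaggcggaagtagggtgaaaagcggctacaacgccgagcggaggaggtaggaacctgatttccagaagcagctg
Tpm4, chr16:17732434-17732733, minus strand: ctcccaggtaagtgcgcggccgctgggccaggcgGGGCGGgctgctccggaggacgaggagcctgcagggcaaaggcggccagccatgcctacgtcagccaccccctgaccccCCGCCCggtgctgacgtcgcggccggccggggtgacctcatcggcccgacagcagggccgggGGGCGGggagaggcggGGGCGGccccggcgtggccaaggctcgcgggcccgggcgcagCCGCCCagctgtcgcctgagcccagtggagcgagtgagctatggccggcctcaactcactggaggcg

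The Tpm4 window held 5 GC boxes and 77% G and C, the Tpm2 window 3 and 70.3%, and the Tpm1 window 1 and 63.7%. Tpm3 window 1 held 0 GC boxes at 49% G and C, and window 2 held 4 at 62.3%. So GC boxes stood at genes of both directions. Over the 9 genes with an entry in the promoter table, which lacks Actb, 10 of 13 windows had a GC box, against 33.1% of all 33469 rat promoter windows. Tpm3 windows 2 and 3 overlap and share GC boxes, so these 13 are not independent. The windows of all genes were not limited to genes with enough counts here. The CArG box, the site of serum response factor, was searched as CC, 6 letters of A or T, and GG. It was found in 0 of the 13 windows, against 1.64% of all windows. The TEAD motif CATTCC on either strand was in 4 of the 13, those of Myh10, Tpm1, Vcl and the first of Cald1, against 14.2%, and the AP-1 motif TGANTCA was in 1, the second of Myh9, against 7.33%. All were searched on both strands, matches of different motifs were counted whether or not they overlapped, and a match or its absence describes the letters of these windows alone.

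Tpm3 stood at 139.5, 171.4, 150.9 and 146.2 CPM in control arteries 1 to 4 and at 250.2, 306.5, 244.5 and 292.2 CPM in injured arteries 1 to 4. Every injured artery was above every control, and control artery 4 lay among the other controls. The mean was 152 ± 13.8 CPM (SD, n = 4) in the controls and 273.4 ± 30.6 CPM (SD, n = 4) after injury. The log2 fold change was 0.85 (standard error, SE, 0.13, edgeR FDR = 0.00348). With control artery 4 left out it was 0.82 at an edgeR FDR of 0.0024. Tpm3 kept an FDR under 0.05 under all 16 alternatives tried, with log2 fold changes from 0.79 to 1.03.

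Tpm4 had 446.6, 476.4, 431.1 and 303.6 CPM in the controls and 636, 840.3, 602.2 and 745.5 CPM in the injured arteries. Again the groups did not overlap, and control artery 4 was the lowest of all 8. Its mean was 414.4 ± 76.2 CPM (SD, n = 4) and 706 ± 108 CPM (SD, n = 4), and the log2 fold change was 0.77 (SE 0.19, edgeR FDR = 0.0253). Leaving out control artery 4 gave 0.64 with an edgeR FDR of 0.00995. The FDR of Tpm4 stayed under 0.05 in 11 of the 16 alternatives. The edgeR FDR was 0.076 with the replicate number as a block, 0.0555 without control artery 1, 0.0648 without control artery 3, 0.0785 without injured artery 2 and 0.0832 without injured artery 4, at log2 fold changes of 0.67 to 0.80. In injured arteries 1 to 4 the summed markers stood at 90.1, 124, 81.2 and 109 CPM for proliferation, at 1742, 2623, 1758 and 2153 CPM for macrophages and at 823, 475, 335 and 1200 CPM for skeletal muscle. The part of these cells in the rise of Tpm3 and Tpm4 was not tested. For Tpm3 and Tpm4 the exact permutation test of log2 CPM over the 70 relabellings of the arteries gave an unadjusted p of 0.0286, two-sided, the smallest that 4 against 4 allow.

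Tpm2 had 4095, 3175, 2556 and 1179 CPM in the controls and 1336, 1357, 915.8 and 1316 CPM after injury. Control arteries 1 to 3 were far above the injured arteries, whereas control artery 4 lay among them. The mean was 2751 ± 1224 CPM (SD, n = 4) in the controls and 1231 ± 211 CPM (SD, n = 4) after injury, a log2 fold change of -1.16 (SE 0.36, edgeR FDR = 0.0615). DESeq2 gave -1.17 with an adjusted p of 0.00606 and called it. Leaving out control artery 4, edgeR called it as well, 2.67-fold lower after injury (log2 fold change -1.42, SE 0.20, edgeR FDR = 0.0018). The exact permutation test over all 8 arteries gave p = 0.114.

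Tpm1 had 3325, 3221, 2512 and 1447 CPM in the controls and 1580, 2022, 1275 and 1753 CPM in the injured arteries, the same arrangement as for Tpm2 with a smaller gap. The log2 fold change was -0.66 (SE 0.29) at an edgeR FDR of 0.157, and without control artery 4 it was -0.87 (SE 0.18) at an FDR of 0.00843. Its exact permutation p was 0.114.

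Cald1 encodes caldesmon, which binds actin, tropomyosin and myosin and holds back the myosin ATPase. Smooth muscle makes a long form and other cells a short form from this 1 gene. It had 2769, 2522, 2333 and 1109 CPM in the controls and 1441, 1631, 1066 and 1426 CPM after injury. As for the muscle tropomyosins, controls 1 to 3 were above all injured arteries and control artery 4 was among them. The mean was 2184 ± 738 CPM (SD, n = 4) and 1391 ± 236 CPM (SD, n = 4), with a log2 fold change of -0.65 (SE 0.29, edgeR FDR = 0.174). Without control artery 4 the edgeR value was -0.87 at an FDR of 0.00468. Over the 8 arteries, the profile of Cald1 was nearest to that of Tpm1 among the 10 genes, at a root-mean-square difference of 0.092 in mean-centred log2 CPM.

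Vinculin links talin and alpha-actinin to actin at adhesions to the matrix and between cells, and muscle has a longer form, metavinculin, from the same gene. Vcl had 1103, 1098, 1142 and 605.4 CPM in the controls and 574.3, 938.6, 740.3 and 741.4 CPM after injury. Its first 3 controls differed little and exceeded every injured artery, but the CPM of control artery 4 was below all but 1 of those. The log2 fold change was -0.40 (SE 0.24) at an edgeR FDR of 0.31, and -0.58 (SE 0.16) at an FDR of 0.0268 without control artery 4.

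Non-muscle myosin II drives contraction of the cortex and of stress fibres in most cell types. Myh10 encodes its heavy chain IIB, also known as SMemb, a usual marker of smooth muscle cells in the synthetic state. Its level was 1141, 989.4, 947.9 and 637.5 CPM in the controls and 789.9, 1055, 761.3 and 793.3 CPM after injury. The groups overlapped, with the highest and the lowest value both in control arteries. The mean was 929 ± 211 CPM (SD, n = 4) and 850 ± 138 CPM (SD, n = 4), and the log2 fold change was -0.13 with a 95% interval of -0.61 to 0.35 (edgeR FDR = 0.713). Without control artery 4 it was -0.28 (-0.61 to 0.05, edgeR FDR = 0.181). No rise of this marker was detected. The interval reached up to 0.35 over all arteries and 0.05 without control artery 4, and with library totals in place of TMM the log2 fold change was 0.06.

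Myh9, the heavy chain of myosin IIA, had 5, 3, 7 and 7 counts in the controls and 9, 13, 6 and 2 counts after injury. These rows were too low for edgeR's test, and DESeq2 gave a log2 fold change of 0.30 with an adjusted p of 0.836. The rows of filamin A (Flna) and thymosin beta-4 (Tmsb4x), which most cells express strongly, stood at 0 in all 8 libraries, so a row at or near 0 in this table cannot be read as a silent gene. How reads were assigned at Myh9 is therefore uncertain, and its few counts were not read as a level of expression.

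Beta-actin is 1 of the 2 cytoplasmic actins and is often used as a reference gene. Actb had 3280, 3092, 2424 and 1841 CPM in the controls and 2753, 2390, 2309 and 2256 CPM after injury. All injured values lay inside the range of the controls. The log2 fold change was -0.13 with a 95% interval of -0.62 to 0.36 (edgeR FDR = 0.714), and -0.28 without control artery 4 (-0.60 to 0.04, edgeR FDR = 0.17). The sign of Actb and of Myh10 depended on the scaling: with library totals in place of TMM both were 0.06, and the median of all genes moved from -0.057 to 0.121.

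Vimentin forms the intermediate filaments of mesenchymal cells, leukocytes and endothelium. Vim had 3007, 2638, 2424 and 1652 CPM in the controls and 3019, 3087, 3554 and 3600 CPM after injury. The groups did not overlap, by a narrow margin between control artery 1 and injured artery 1. The mean was 2430 ± 572 CPM (SD, n = 4) and 3315 ± 305 CPM (SD, n = 4), and the log2 fold change was 0.45 with a 95% interval of -0.04 to 0.94 (edgeR FDR = 0.198). Without control artery 4 it was 0.30 at an edgeR FDR of 0.116, so Vim did not pass the threshold in either fit. The exact permutation test gave an unadjusted p of 0.0286, the smallest possible.

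**Figure D2:**
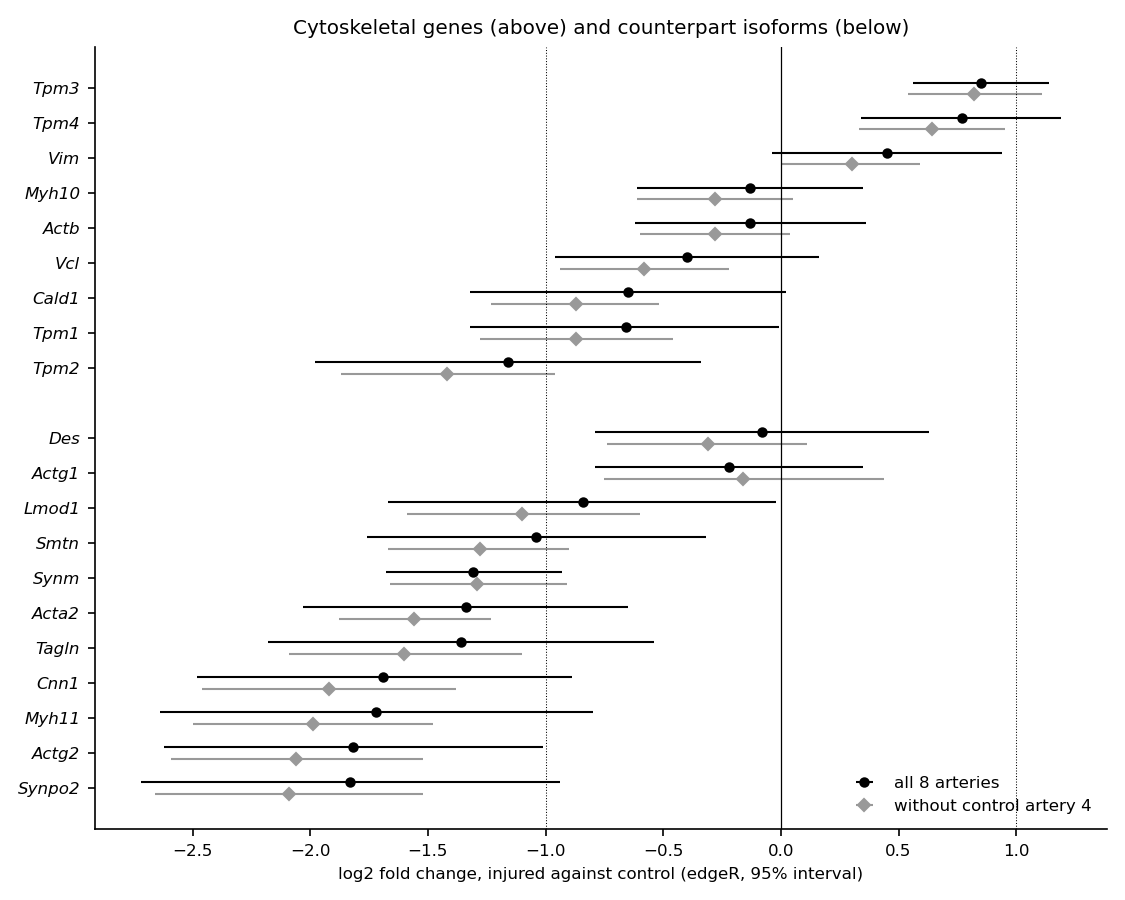
Log2 fold change of injured against control arteries with its 95% interval from edgeR, for the 9 tested genes (above) and 11 counterpart isoforms (below), over all 8 arteries (black circles) and without control artery 4 (grey diamonds). Dotted lines mark a fold of 2. The intervals of Tpm3 and Tpm4 lie above 0 in both fits, those of Tpm1, Cald1 and Vcl narrow and move down without control artery 4, and the estimates of Acta2, Cnn1 and Myh11 lie further down than any of the 9.

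To compare each gene with its counterpart in the same filament system, the log2 ratio of their counts was taken within each artery. Such a ratio does not depend on the scaling between libraries, and only its change is read, since transcript lengths were not used. Of 12 ratios, 6 were separated completely between the groups. Each of these had p = 0.0286 in a two-sided exact permutation test, the smallest possible, and 0.0572 after Benjamini-Hochberg adjustment over the 12. The ratios share genes and are not independent. No share over all gene pairs was taken, and among single tested genes 23.7% did not overlap. The denominators Myh11, Acta2 and Cnn1 were themselves called lower, so the count in part restates single-gene values. Apart from the ratios with the sparse Myh9, Tpm4 to Tpm2 had the largest difference, with and without control artery 4. It was 0.109, 0.15, 0.169 and 0.258 in the controls and 0.476, 0.619, 0.658 and 0.566 after injury, a 3.52-fold higher ratio. Control artery 4 was the nearest control to the injured arteries, and without it the ratio was 4.1-fold higher. Tpm4 to Tpm1 was 2.62-fold higher (0.134, 0.148, 0.172 and 0.21 against 0.402, 0.416, 0.472 and 0.425), and Tpm3 to Tpm1 2.74-fold, or 2.84-fold and 3.25-fold without control artery 4. Of all counts on the 4 tropomyosin genes, Tpm3 and Tpm4 together held 7.32%, 9.2%, 10.3% and 14.6% in the controls and 23.3%, 25.3%, 27.9% and 25.3% in the injured arteries. The share was higher in every injured artery than in any control, control artery 4 included.

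Myh10 to Myh11 was 0.0643, 0.0734, 0.0726 and 0.128 in the controls and 0.157, 0.292, 0.279 and 0.224 in the injured arteries, 2.84-fold higher, and 3.3-fold without control artery 4. All injured arteries exceeded the controls in this ratio, although Myh10 itself gave no detectable change. Myh11 had a log2 fold change of -1.72 (SE 0.40, edgeR FDR = 0.0222), and -1.99 without control artery 4. Its call held without control artery 4 or injured artery 1, but with any of the other 6 arteries left out the FDR was 0.0553 to 0.0839, and with the replicate block 0.0654. Actb to Acta2 was likewise 2.26-fold higher (0.213, 0.208, 0.192 and 0.281 against 0.519, 0.457, 0.564 and 0.463), and 2.44-fold without control artery 4. Acta2 had -1.34 at an edgeR FDR of 0.0193, and -1.56 without control artery 4, the only artery whose removal kept the call. With any of the other 7 left out its FDR was 0.0515 to 0.0785, and with the replicate block 0.0772. Cald1 to Cnn1 was 2.01-fold higher (1.31, 1.14, 1.85 and 1.42 against 2.26, 3.25, 2.74 and 3.17). Calponin, another actin-binding brake on myosin, fell by 1.69 on the log2 scale at an edgeR FDR of 0.0137, and its log2 fold change was -1.92 without control artery 4. Without injured artery 4 its FDR was 0.0549.

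The other 6 ratios overlapped between the groups. Tpm1 to Tpm2 had a log2 difference of 0.43 (exact permutation p = 0.0571, adjusted 0.0857). Vim to Des had 0.49 (exact permutation p = 0.0857, adjusted 0.114), with desmin itself at a log2 fold change of -0.08 at an edgeR FDR of 0.885. Vcl to talin 1 (Tln1), its binding partner, had 0.06 (exact permutation p = 0.743). Actb to Actg1, the other cytoplasmic actin, had 0.11 (exact permutation p = 0.8), and reads of Actg1 may be shared with near-identical copies. The ratios with Myh9 rested on its 2 to 13 counts. Myh9 to Myh11 had a log2 difference of 1.73 (exact permutation p = 0.0571) and Myh10 to Myh9 one of -0.22 (exact permutation p = 0.714).

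**Figure D3:**
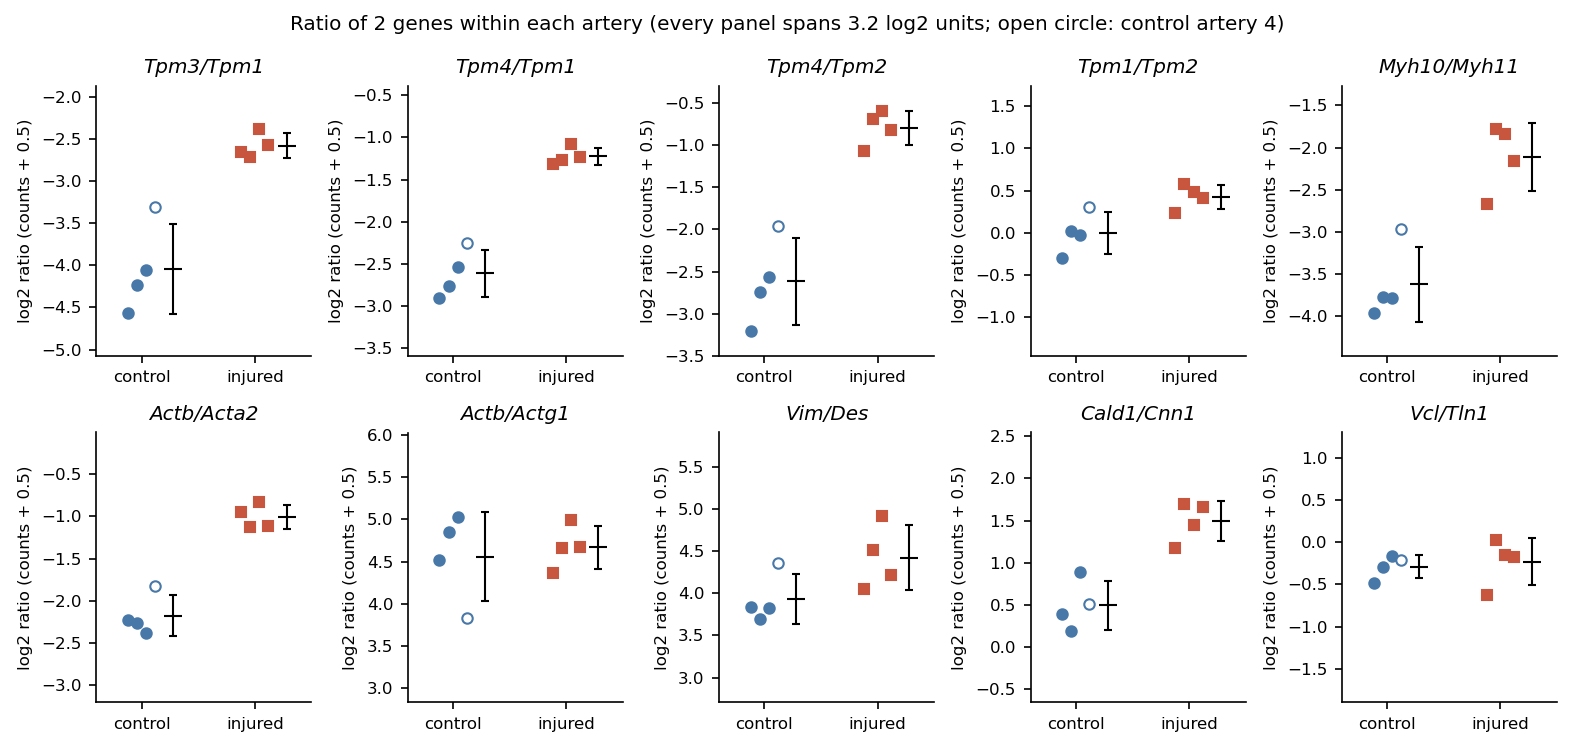
Log2 ratio of the counts (plus 0.5) of 2 genes within each artery, 1 panel per ratio, for 4 control arteries (blue circles, control artery 4 open) and 4 injured arteries (red squares), with mean and SD in black. Every panel spans the same number of log2 units. The groups are separate for Tpm3/Tpm1, Tpm4/Tpm1, Tpm4/Tpm2, Myh10/Myh11, Actb/Acta2 and Cald1/Cnn1 and overlap in the other 4 panels.

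The partners of these proteins were examined in lists chosen by function. Among all genes 8.31% were called higher and 2.57% lower, and 12.3% and 3.94% without control artery 4. Of 11 counterpart isoforms, which are muscle proteins apart from Actg1, 7 were called lower and 0 higher, with a median log2 fold change of -1.34. The count was 9 without control artery 4, and 2 of the 7, Actg2 and Synm, kept their call whichever artery was left out. The lowest were synaptopodin 2 (Synpo2), a Z-disc and stress fibre protein, at -1.83 and gamma smooth muscle actin (Actg2) at -1.82, with edgeR FDRs of 0.0152 and 0.0105, and Synpo2 lost its call without injured artery 2 or 4 (FDR 0.0566 and 0.0593). The highest were Des and Actg1, at -0.08 and -0.22, and neither passed. Tpm2, Tpm1, Cald1, Vcl, Myh10 and Actb, at -1.16 to -0.13, lay within the range of this list, whereas Tpm3, Tpm4 and Vim lay above all of it.

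Among 13 genes listed as myosin light chains and regulators, which also include the heavy chain Myh14, 3 were called lower and 0 higher (median log2 fold change -0.48). These were the regulatory light chain of smooth muscle Myl9 (-1.53, edgeR FDR = 0.0157), the light chain kinase Mylk (-1.27, FDR = 0.029) and the phosphatase subunit Ppp1r12a (-1.01, FDR = 0.0352). The highest values were those of anillin (Anln), a ring protein of cell division, at 0.65 and of the third non-muscle heavy chain Myh14 at 0.07, with edgeR FDRs of 0.265 and 0.978. Myh14 had 105 CPM in control artery 4 and 2.75 as its log2 fold change without it (FDR = 0.0563). The count was 5 without control artery 4, all lower, but Mylk and Ppp1r12a lost their call when any of the other 7 arteries was left out (FDR 0.0553 to 0.099 and 0.0669 to 0.11), and Myl9 without injured artery 2 or 4 (FDR 0.0514 and 0.0597). With the replicate block none of the 3 passed (FDR 0.0568 for Myl9, 0.0679 for Mylk and 0.0683 for Ppp1r12a).

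Of 20 tested genes of actin assembly and cross-linking, 3 were called higher and 1 lower (median log2 fold change 0.18), and 6 and 1 without control artery 4. The largest rise was that of plastin 2 (Lcp1), an actin bundler of leukocytes, at 3.36 (SE 0.25, edgeR FDR = 0.000226). The capping protein Capg, abundant in macrophages, and the formin Diaph3 were also called, at 1.95 and 1.28. Diaph3 lost its call without control artery 1 or 2 or injured artery 2 or 4 (FDR 0.0601 to 0.0858) and with the replicate block (FDR 0.0896), whereas Lcp1, Capg and Gsn were called in all 8 fits with 1 artery left out. The leukocyte coronin Coro1a, at 2.12, was not called over all arteries (edgeR FDR = 0.143), but it was without control artery 4 (3.94, FDR = 0.000222). Gelsolin (Gsn), which severs filaments, was called lower at -1.77 (edgeR FDR = 0.00753), and the pointed-end cap Tmod1 had -1.44 (FDR = 0.251). Tmod1 stood at 228 CPM in control artery 4 and 79.76 CPM in injured artery 3, the libraries with the most neuron marker counts. Its log2 fold change was -0.44 (edgeR FDR = 0.602) without control artery 4 and -1.34 (edgeR FDR = 0.00249) without both. Macrophage markers rose in the injured arteries, from 195 to 295 CPM in sum to 1742 to 2623 CPM, and their part in the values of this list was not tested.

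Among 15 focal adhesion partners of vinculin, 2 were called lower and 0 higher (median log2 fold change -0.51), and 3 and 0 without control artery 4. Tensin 1 (Tns1), which ties integrins to actin, had -1.42 and the adaptor Lims2 had -1.39, with edgeR FDRs of 0.0104 and 0.00279. With the replicate block Tns1 had an FDR of 0.054. Vasp and paxillin (Pxn) had the highest values, 0.38 and 0.06, with edgeR FDRs of 0.213 and 0.886, and Pxn had -0.12 without control artery 4. Vcl, at -0.40, lay close to the median of its partners.

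Of 7 intermediate filament partners of vimentin, 2 were called higher and 0 lower (median log2 fold change 0.00). These were the nuclear lamin Lmnb1, at 2.25, and nestin (Nes), which co-assembles with vimentin, at 1.92, with edgeR FDRs of 0.00419 and 0.00577. The keratins Krt19 and Krt18 had the lowest values, -0.52 and -0.49, with edgeR FDRs of 0.837 and 0.374. Without control artery 4, which had 9.28 CPM of Krt19, its log2 fold change turned to 2.31 (FDR = 0.204). Vim itself, at 0.45, lay between nestin and the median of its partners. In the smallest list, 0 of 2 calponin family partners of caldesmon were called. Acidic calponin (Cnn3) passed the FDR without the fold (-0.59, edgeR FDR = 0.0313), and Cnn2 had 0.26 and did not pass.

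**Figure D4:**
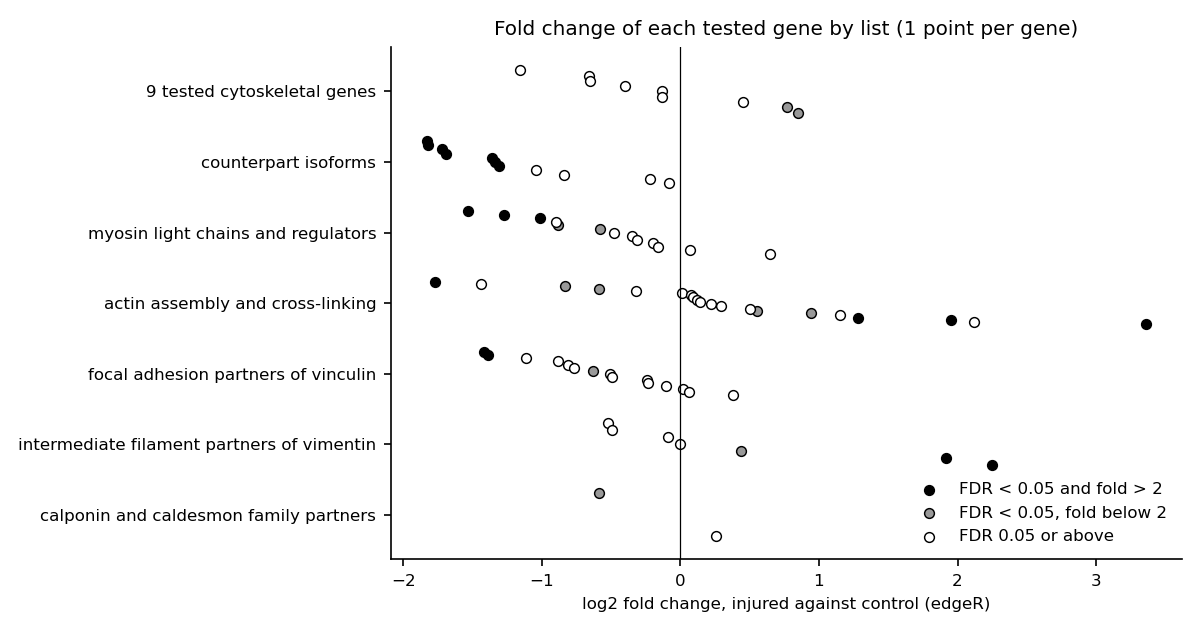
Log2 fold change (edgeR, injured against control, all 8 arteries) of every tested gene in 7 lists, 1 point per gene, filled black for called genes, grey where it passed the FDR alone and white where it did not pass. Called genes of the counterpart, myosin light chain and focal adhesion lists lie on the left, and the rightmost point is Lcp1 at 3.36.

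Lastly, for each of the 10 genes the gene with the most similar profile over the 8 arteries was found among 10251 non-member genes, by the smallest root-mean-square difference of mean-centred log2 CPM. For Tpm2 it was Ppp1r14a, an inhibitor of myosin phosphatase in smooth muscle, at 0.087, and for Tpm1 the tetraspanin Tspan2 at 0.086. For Tpm3 it was Lasp1, an actin-binding adaptor, at 0.081, and for Tpm4 Aldh16a1 at 0.082. Vim was nearest to the podosome adaptor Sh3pxd2a at 0.077, Myh10 to Eogt at 0.077, Actb to Slc35d1 at 0.063, Cald1 to LOC100909539 at 0.091 and Vcl to Pycr1 at 0.111. Myh9, with its few counts, found no profile closer than that of Zfp780b at 0.294. Among the 10 genes themselves, Tpm1 and Cald1 were each other's nearest at 0.092, as were Tpm3 and Tpm4 at 0.171 and Myh10 and Actb at 0.175. Vim was nearest to Tpm4 at 0.244. The profiles of Myh10, Actb and Vim had SDs of 0.282, 0.268 and 0.363, against 0.471 to 0.532 for Tpm1, Tpm3, Tpm4 and Cald1. A small distance between genes that vary little says less about likeness. These distances describe 8 libraries, and the state of control artery 4 enters all of them.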

How the data were processed

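Gene-level read counts of 8 carotid artery libraries were deposited by the authors as 1 table of 37209 symbols, without normalization. The submitters' processing notes name HISAT2 2.0.4. The counting tool, genome build, annotation and strand setting are not given in the sources used here. Columns were matched to samples by their labels, and no 2 libraries held identical counts.

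Counts were normalized by TMM, filtered with filterByExpr and compared with the quasi-likelihood test of edgeR 4.0.16 in R 4.3.3, over all 14359 genes left. Alternatives were DESeq2 1.42.0, other scalings and filters, the replicate number as a block and each artery left out. Intervals are 95% intervals from the edgeR fit. Tests were first run on simulated counts with known changes. Total counts per library were 11459632 to 16658089.

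Ratios within arteries added 0.5 to each count. Named genes were the 10 genes, their ratio partners, the 2 highest and 2 lowest log2 fold changes of each partner list, the most abundant gene of a marker list and the nearest profile (among genes above an average log2 CPM of 3). Other named genes were picked after their values were seen. The 10 genes and all lists were chosen with earlier results of these data known. Promoter sequences came from RefSeq (GRCr8). A gene of a partner list is not reported here.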

Additional observations from a re-analysis of the deposited data

Results flagged for a closer look

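In 44 groups of 4 arteries (the CPM of the 10 genes and the log2 ratios), the gap between the most extreme artery and its nearest neighbour was set against the range of the group by Dixon's criterion. It was exceeded in 3 groups, where chance alone would give about 2.2. Injured artery 2 had 1055 CPM of Myh10, and the next injured artery 793.3 CPM, a gap of 0.891 of the range. Injured artery 3 had 915.8 CPM of Tpm2, and the next injured artery 1316 CPM, a gap of 0.908 of the range. Control artery 4 had 605.4 CPM of Vcl, and the next control 1098 CPM, a gap of 0.918 of the range.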

How the results depend on the processing

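Under 16 alternatives, Tpm1, Tpm2, Tpm3, Tpm4, Cald1, Vcl and Vim kept their direction. The number of the 10 genes called, 0 with edgeR, was 1 with DESeq2, 1 with library totals only and 0 to 1 when each artery was left out. The number at an FDR under 0.05, 2, was 1 to 6 when each artery was left out. Leaving out both libraries with neuron markers, chosen after seeing the data, gave 1 and 6, and 2473 genes called in all. Over all genes 1562 were called, 1007 with at least 10 counts in every library and 1142 to 2398 with each artery left out. Of the partner genes 18 were called, and 9 to 26 with each artery left out. Among the fits with 1 artery left out, the highest counts were those without control artery 4, and the cause was not tested.

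With the replicate block, 0 of the 10 genes were called, 1 had an FDR under 0.05 (Tpm3) and 10 partner genes were called. Same-numbered arteries deviated from their group means with correlations of 0.301, 0.45, -0.52 and -0.416, and 1 of 4 correlated best with its own number. Control artery 4 and injured artery 3, the libraries with the most neuron marker counts, bear different numbers and may weigh on these correlations. They therefore cannot decide whether the numbers are pairs, and the block was kept as an alternative only.

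With library totals, Myh10 and Actb turned to 0.06 each. The ratios near 0 changed sign as well: Myh10 to Myh9 (-0.57 to 0.05, with 0.01 without control artery 2 and 0.05 without injured artery 2), Actb to Actg1 (-0.13 to 0.27, with -0.13 without control artery 4) and Vcl to Tln1 (-0.03 to 0.19, with -0.01 without control artery 1 and -0.03 without injured artery 2). For ratios with 1 artery left out, values were compared and no test was run. With 4 arteries a group, the 95% intervals of Myh10 and Actb leave room for log2 changes of about 0.35 upward and 0.61 downward.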

Other observations

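The third non-muscle myosin heavy chain, Myh14, had 105 CPM in control artery 4 and 76.9 CPM in injured artery 3, the libraries with the most neuron marker counts. The other controls had 2.12 to 8.84 CPM of Myh14 and the other injured arteries 5.06 to 24.2 CPM. Krt19 had 9.28 CPM in control artery 4 and 4.7 CPM in injured artery 3, with at most 1.04 CPM in the other 6 libraries. The leukocyte coronin Coro1a had 43.4 CPM in control artery 4, 2.08 to 5.18 CPM in the other controls and 48.01 to 67.3 CPM after injury. The summed macrophage markers of control artery 4, 244 CPM, lay within the range of the other controls.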
